A study of Mus musculus with 16 samples.

Results

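Regulatory T cells (Treg) sorted from mice were described by where 5-hydroxymethylcytosine (5hmC) lay in their genome, as the ratio of pull-down reads to input reads over 1 common set of regions. Their 4 libraries, pull-downs 1 and 2 and inputs 1 and 2, were taken by label from the 16 libraries of the series. The deposited table counts reads in 177720 regions, of which 112635 held enough reads for a test in Treg. Reads summed over all regions that the table assigns to a gene symbol gave 15543 genes, of which 14548 were tested. The study measured 5hmC by CMS-IP in 4 kinds of CD4 T cell, each as 2 pull-downs and 2 inputs. The mice, Foxp3-eGFP reporter animals on C57BL/6, were 5 to 6 weeks old, and spleen and lymph nodes were the source. Treg were the CD4+eGFP+ cells, in which the reporter of the Foxp3 gene was on, and the labels name no further marker for that sort. The other 3 kinds were iTreg, induced in culture from naive T cells with TGFβ, iTreg for which RA (retinoic acid) and VitC (vitamin C) were added to TGFβ, and naive T cells sorted as CD4+eGFP-CD25-CD62LhiCD44lo. The labels do not say whether the replicates came from separate mice, so every p-value below measures only the spread between these libraries.

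5hmC is made when TET enzymes oxidise 5-methylcytosine, the methyl mark that DNA methyltransferases place on cytosines of CG pairs. It is an intermediate on the way to unmethylated cytosine, it is known to gather over the bodies and enhancers of genes that a cell uses, and it is rare at CG-dense promoters that were never methylated. In Treg, TET enzymes are known for keeping enhancers of Foxp3 free of methylation, which keeps the gene on as the cells divide. CMS-IP reads it out chemically: sodium bisulfite gives 5hmC a sulfonate group, and a serum against the product, CMS, pulls down fragments that carry it.

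The promoters of 4 genes are printed as examples from the extremes of the landscape. They were matched to their regions by gene symbol, not by coordinates. They belong to the 2 most and the 2 least enriched regions among 463 regions that covered the start of a gene with 1 annotated start, held 20 or more input reads and passed the threshold. The sequences are RefSeq's on the mouse build GRCm38.p6, each 300 bases long (250 before the start and 50 after it), all on the plus strand, and capitals mark every CG pair, which reads the same on both strands. Of the 22862 single-start promoters in the RefSeq table, 93.8% hold at least 1 CG, with a median of 7.
Gimap5 chr6:48745947-48746246: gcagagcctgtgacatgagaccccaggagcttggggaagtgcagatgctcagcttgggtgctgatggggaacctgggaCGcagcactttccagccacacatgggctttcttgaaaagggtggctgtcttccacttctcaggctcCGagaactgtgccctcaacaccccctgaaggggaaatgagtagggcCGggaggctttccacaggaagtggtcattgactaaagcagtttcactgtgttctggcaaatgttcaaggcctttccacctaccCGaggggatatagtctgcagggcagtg
Tap1 chr17:34187306-34187605: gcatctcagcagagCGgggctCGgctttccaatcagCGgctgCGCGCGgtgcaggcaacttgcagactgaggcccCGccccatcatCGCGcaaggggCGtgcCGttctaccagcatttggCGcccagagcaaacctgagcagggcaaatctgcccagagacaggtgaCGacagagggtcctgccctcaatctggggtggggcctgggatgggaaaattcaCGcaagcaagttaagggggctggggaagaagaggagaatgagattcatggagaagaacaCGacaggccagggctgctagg
Spatc1l chr10:76562022-76562321: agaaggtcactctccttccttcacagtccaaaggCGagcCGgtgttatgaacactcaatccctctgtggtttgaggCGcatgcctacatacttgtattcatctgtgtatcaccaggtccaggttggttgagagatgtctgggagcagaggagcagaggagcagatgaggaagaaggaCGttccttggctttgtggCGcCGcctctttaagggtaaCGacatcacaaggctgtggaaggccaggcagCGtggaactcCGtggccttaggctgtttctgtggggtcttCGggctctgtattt
Il2ra chr2:11642542-11642841: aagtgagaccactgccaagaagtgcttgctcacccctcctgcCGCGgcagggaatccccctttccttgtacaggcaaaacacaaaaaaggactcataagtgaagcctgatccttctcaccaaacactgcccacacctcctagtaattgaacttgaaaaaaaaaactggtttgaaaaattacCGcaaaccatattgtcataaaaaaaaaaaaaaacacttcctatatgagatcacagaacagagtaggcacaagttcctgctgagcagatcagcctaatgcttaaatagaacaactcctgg
They hold 4, 15, 10 and 3 CG pairs, in the order printed, so CG content did not put the enriched promoters on one side and the depleted ones on the other.

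Values below are in CPM, the usual counts-per-million unit, over reads in regions after TMM scaling of the 4 libraries, and a log2 enrichment is pull-down over input on that scale. The region over the start of Gimap5, a GTPase that lymphocytes need to survive, had 55.8 and 52.8 CPM in the pull-downs, against 12.1 and 13.1 CPM in the inputs. Both pull-downs stood over 4 times above both inputs, at a log2 enrichment of 2.10 (SE 0.19, edgeR adjusted p = 1.37e-15). Tap1, a subunit of the pump that carries peptides to MHC class I, had 94.8 and 104 CPM in the pull-downs, against 23.7 and 23.5 CPM in the inputs, a log2 enrichment of 2.07 (edgeR adjusted p = 1.17e-20). At the other end, the region over the start of Il2ra, the gene of the interleukin-2 receptor chain CD25, held 29 and 17 reads in the pull-downs, against 23 and 17 reads in the inputs. Scaled for depth that was 4.14 and 2.26 CPM in the pull-downs, against 13.3 and 11.8 CPM in the inputs, so both pull-downs lay below both inputs, at a log2 enrichment of -1.98 (SE 0.35, edgeR adjusted p = 7.17e-06). Spatc1l had 2.28 and 3.32 CPM in the pull-downs, against 9.83 and 13.8 CPM in the inputs, a log2 enrichment of -2.04 (edgeR adjusted p = 9.16e-06). On mm9, the build of the count table, the 4 regions are chr6:48691733-48696689, chr17:34325330-34333273, chr10:76024228-76027529 and chr2:11563877-11567653.

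The Treg pull-downs held 7664194 and 8347328 reads in regions, against 1563165 and 1318606 reads in their inputs. Pull-downs of the series ranged from 1648804 to 9731897 reads and inputs from 1028822 to 1563165. A Treg region had a median of 17 and 18 reads in the pull-downs, against 5 and 4 in the inputs, and 686 and 616 regions had no read in the pull-downs, against 7760 and 10988 in the inputs. A count of 0 allows up to 3 reads, which is 0.391 and 0.359 unscaled CPM in the pull-downs, against 1.92 and 2.28 in the inputs, so the inputs set the precision. These limits cover counting error only. Counts of the replicates differed little more than counting error gives, with a chi-square per degree of freedom of 1.23 between the pull-downs and 1.01 between the inputs. The regions are a union of broad peaks called in this series, so an enrichment compares a region with the other regions of this table and is no absolute amount of 5hmC. The regions span 175 to 128857 bp with a median of 745 bp and cover 259 Mb, 111159 of them overlap a transcript, and 14577 carry no gene symbol.

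Across the regions, the pull-down was higher than the input in 12797 of 112635 (11.4% of those tested) and lower in 8073 (7.17%), at an adjusted p under 0.05. The read filter could be met by the pull-downs alone or by the inputs alone. A thinly covered region or gene could thus enter the test only through the group where it was high. With no filter, 14391 of 177709 regions were higher and 5326 lower. Reads were more concentrated in the pull-downs: the 10% of regions with most reads held 54.8% and 55.4% of the pull-down reads, against 43.5% and 43.6% of the input reads. Summed per gene, 2981 of 14548 genes were enriched (20.5%) and 2332 were depleted (16%). The central 90% of genes lay between -0.91 and 0.88 on the log2 scale, and the central 50% between -0.33 and 0.32. These directions are relative to TMM, which put the median gene at -0.02. Scaled by plain library size, the median gene lay at -0.22 and the same test called 1761 genes higher and 4486 lower, and 7253 regions higher and 15550 lower. The enrichments of pair 1 and pair 2 had a Spearman rho of 0.65 across the genes and 0.70 across the 39553 regions with 20 or more input reads, given as a description, since genes and regions of 1 library share its depth. Of those better covered regions 8731 were higher and 3486 lower, while 4587 of all the lower regions held fewer than 20 input reads. The counts rested on single libraries in part: without Treg input 1 there were 6723 regions higher, 1795 lower and 1245 genes lower, and without input 2 there were 7624, 2051 and 1362. Without pull-down 1 and without pull-down 2, regions lower numbered 2384 and 2268.

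The regions around gene starts stood highest among the gene parts, which are described here without a test. Regions overlapping a 5′ UTR had a median log2 enrichment of 0.25, with 26.3% of 6326 tested regions higher and 4.57% lower. Promoter regions had a median of 0.19, with 15.3% of 9958 higher. The median was 0.04 for 3′ UTR regions, -0.03 for other exons and -0.07 for introns, of which 9.23% were higher and 7.61% lower. Intergenic regions within 10000 bp of a start had a median of -0.08 and those farther away -0.04, and 8.04% of the far regions were lower. The raw shares of reads moved alike: 5′ UTR regions took 13.1% and 13.3% of the pull-down reads, against 10.2% and 10.2% of the input reads. Introns took 32.6% and 32.6% of the pull-down reads, against 34.9% and 34.8% of the input reads. For 5′ UTR regions that is 1.28 and 1.30 times the input share in the Treg pairs, against 1.35 and 1.35 times in the naive pairs, so the preference for gene starts was also present in naive cells.

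**Figure D1:**
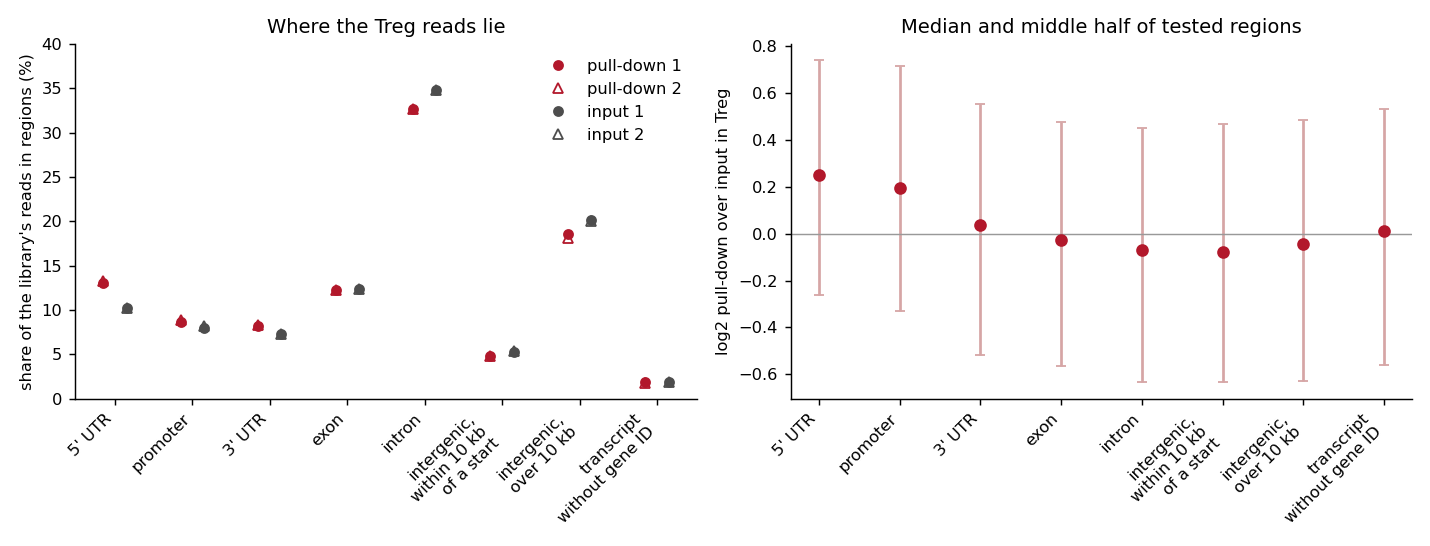
Left, share of each Treg library's reads (%) by gene part for pull-downs and inputs 1 and 2. Right, median and middle 50% of the log2 enrichment of pull-down over input in tested regions, where 5′ UTR regions (median 0.25) and promoters (0.19) lie highest and introns (-0.07) and near intergenic regions (-0.08) lowest.

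Part and width were tied: 5′ UTR regions had a median width of 2460 bp, against 1204 bp for promoters. Among regions of 500 to 1500 bp, promoters had the highest median at 0.12, against -0.19 for all regions of that width. There 5′ UTR regions had -0.03, so promoters and 5′ UTR regions changed places, 3′ UTR regions had -0.28 and introns -0.23. By distance, regions that covered a start had a median of 0.33 with 30.1% of 3889 higher, and those 1 to 500 bp away had 0.31 with 18.2% higher. At 501 to 2500 bp the median was 0.16, and from 2501 bp outward it lay between -0.09 and -0.07, with 8.49% of the regions beyond 50000 bp higher.

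Whether a gene's start was covered by a region at all went with the CG content of its promoter. Of genes with a region on the transcript, 401 of 1191 (33.7%) with 0 to 5 CG pairs in the 300 bases had a region over the start, and so did 299 of 951 (31.4%) with 6 to 10. With 11 to 20 CG pairs it was 385 of 2420 (15.9%), and with over 20 it was 563 of 4219 (13.3%). Among genes with a region on the transcript, regions over starts were thus rarer at CG-rich promoters. Set against all single-start promoters, the same counts were 401 of 10303, 299 of 3195, 385 of 3760 and 563 of 5604. On that base the promoters with 0 to 5 CG pairs were covered least, so the order depended on the base. Among promoter and 5′ UTR regions matched to such a promoter, the median log2 enrichment was 0.14, 0.29, 0.19 and 0.19 from the fewest to the most CG pairs, with no steady order. Here 11868 of 20808 promoter and 5′ UTR regions could be matched by symbol to a single-start promoter.

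Wide regions were the most enriched. The median log2 enrichment rose with width from 501 bp upward: -0.23 at 501 to 1000 bp, -0.10 at 1001 to 2000, 0.10 at 2001 to 4000, 0.36 at 4001 to 8000, 0.65 at 8001 to 16000 and 0.96 above 16000 bp. Above 16000 bp, 837 of 882 regions were higher (94.9%) and 2 were lower. These 882 broad regions carried 645 gene symbols and covered 21.9 Mb. They made up 8.44% of the width of all regions and took 12.5% and 12.7% of the pull-down reads, against 7.41% and 7.40% of the input reads. At the narrow end, 31138 regions of up to 250 bp were in the table, but 1423 of them held enough reads for a test, so their median of -1.12 describes that fraction. Peak width is set by pull-down reads of the series, those of Treg possibly among them, so width is not independent of enrichment. Across the regions with 20 or more input reads, width and enrichment had a Spearman rho of 0.54, as a description.

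**Figure D2:**
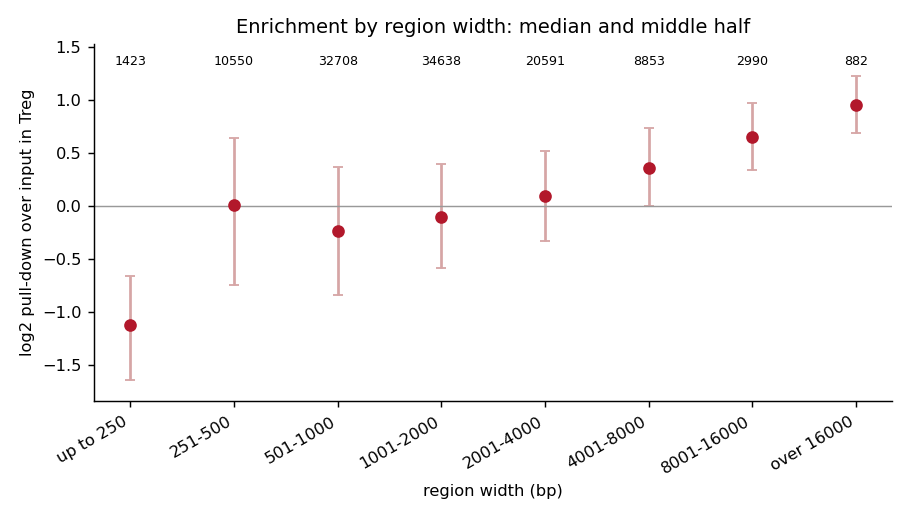
Median (point) and middle 50% (bar) of the log2 enrichment of pull-down over input in Treg by region width in bp, with the number of tested regions on top. The median climbs from -0.23 at 501 to 1000 bp to 0.96 above 16000 bp.

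Several of the widest regions lay over transcription factors of T cell development. The region over Bcl11b, the factor that commits progenitors to the T cell lineage, spanned 89433 bp (chr12:109141331-109230763, mm9) and had 1174 and 1242 CPM in the pull-downs, against 244 and 241 CPM in the inputs. Both pull-downs were near 5 times both inputs, at a log2 enrichment of 2.31 (SE 0.08, edgeR adjusted p = 1.86e-41). Over Lef1, a partner of β-catenin that naive T cells express, a region of 90447 bp (chr3:130820679-130911125) had 1131 and 1165 CPM in the pull-downs, against 285 and 280.2 CPM in the inputs, a log2 enrichment of 2.02 (edgeR adjusted p = 3.67e-38). The widest region of the table (chr4:32345584-32474440, 128857 bp) overlapped a 5′ UTR at Bach2, which encodes a repressor that restrains effector programmes. It had a log2 enrichment of 1.34, and a second Bach2 region of 63297 bp had 1.06. The other 6 of the 10 widest regions lay at Prex1, Gtf2i, Foxp1, Ablim1, Sema4d and Rasa3, with log2 enrichments of 1.47, 1.32, 0.69, 1.21, 1.68 and 1.41. Sema4d encodes a semaphorin of the lymphocyte surface and Rasa3 a GTPase-activating protein for Ras and Rap.

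The X chromosome stood apart from the autosomes. Its 1324 tested regions had a median log2 enrichment of 0.59, while the autosomes lay between -0.08 and 0.08. On the X, 1324 of 3344 regions held enough reads for a test, against 112635 of 177720 in all, so the median describes that part. The read densities that follow count all regions, tested or not. In reads per kb, unscaled, X regions held 21.6 and 23.3 in the pull-downs and 3.46 and 2.97 in the inputs, while autosomal regions held 29.7 and 32.4 in the pull-downs and 6.07 and 5.12 in the inputs. The X thus had 0.726 and 0.720 times the autosomal read density in the pull-downs, against 0.569 and 0.581 times in the inputs. The sex of the mice is not given in the labels, and the part of X copy number in these values was not tested. A thinly covered X region could enter the test through its pull-downs alone, which can raise the median over tested regions. Enrichments of X-linked genes, Foxp3 among them, are to be read beside both this median and the read densities.

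The gene with the largest summed enrichment among well-covered genes was Fam78a, with 185 and 186 CPM in the pull-downs, against 48.7 and 56 CPM in the inputs and a log2 enrichment of 1.83 (SE 0.11, edgeR adjusted p = 3.25e-62). Well-covered means 100 or more reads over both inputs, and 3294 genes past the threshold met this and moved alike in both pairs, 2084 of them higher and 1210 lower. Lck, the kinase that starts signalling from the T cell receptor, had 267 and 292 CPM in the pull-downs, against 90.4 and 92.3 CPM in the inputs, a log2 enrichment of 1.61 (edgeR adjusted p = 7.25e-75). Cish, an inhibitor of cytokine signalling that STAT5 switches on, had 130.3 and 134 CPM in the pull-downs, against 44.9 and 35.6 CPM in the inputs, a log2 enrichment of 1.70. In each of these genes both pull-downs lay above both inputs with no overlap. Arhgap45, a GTPase-activating protein of blood cells, reached 1.80, Hsdl1 1.75, Kbtbd11 1.69 and Ski, a co-repressor of TGFβ signalling, 1.61. The rest of the 12 most enriched were the RNA-binding protein gene Rbm38 at 1.60, the vesicle transport gene Sytl3 at 1.57, the palmitoyltransferase gene Zdhhc18 at 1.55, the inositol phosphate kinase gene Itpkb at 1.54 and the blood cell GTPase gene Rac2 at 1.54. Their summed region widths ran from 15247 to 89871 bp, and all 12 had an edgeR adjusted p of 1.78e-36 or less.

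**Figure D3:**
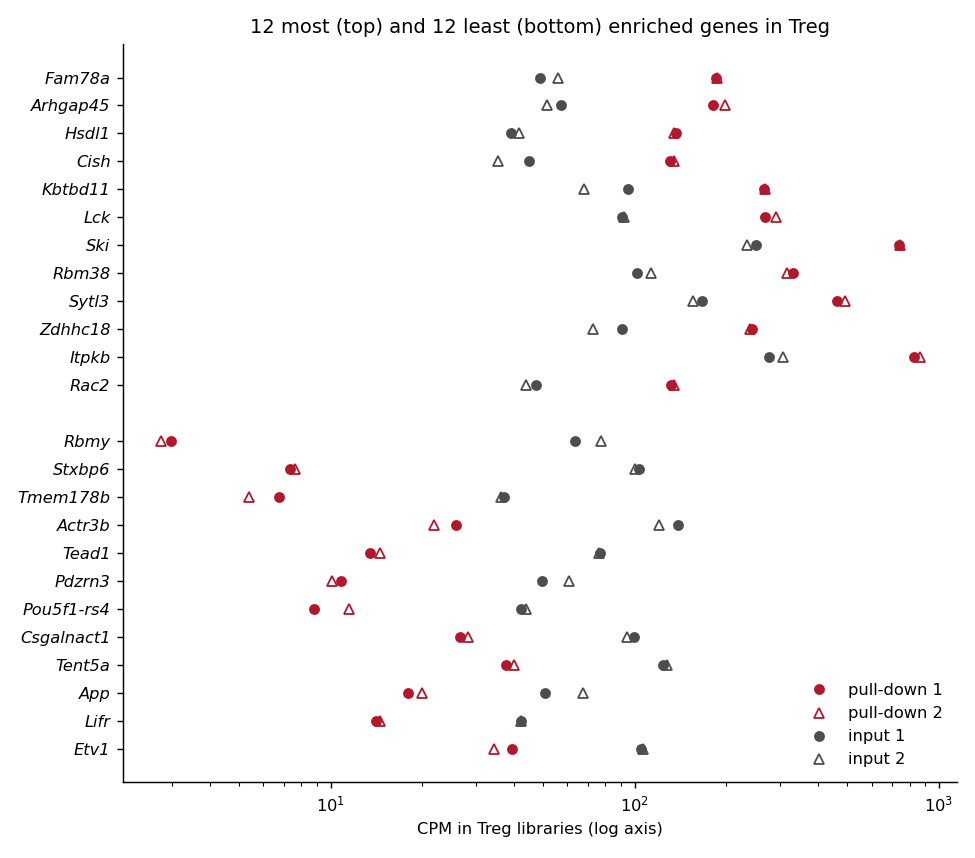
CPM (log axis) of the 12 most and 12 least enriched well-covered genes in each of the 4 Treg libraries, pull-downs and inputs. Every pull-down of an enriched gene lies above both of its inputs, as for Lck, and every pull-down of a depleted gene below, as for Stxbp6.

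Single regions reached higher values than genes. The strongest among regions with 20 or more input reads lay over the 3′ UTR of Egr1 (chr18:35021929-35026756), an immediate early transcription factor of T cell receptor signalling, with 78.5 and 86.4 CPM in the pull-downs, against 10.4 and 13.1 CPM in the inputs. Its pull-downs exceeded its inputs by about 6 times or more, at a log2 enrichment of 2.82 (SE 0.18, edgeR adjusted p = 3.53e-23). An intronic region of Cd4 (chr6:124831327-124835404), which encodes the co-receptor that defines these cells, had 59.7 and 57.1 CPM in the pull-downs, against 11.6 and 8.3 CPM in the inputs, a log2 enrichment of 2.53 (edgeR adjusted p = 1.76e-18). An exonic region of Dnmt3a (chr12:3871371-3875462), a de novo DNA methyltransferase, reached 2.53. An intergenic region 7289 bp from the start of Zfp36l2, an RNA-binding protein that destabilises mRNA, reached 2.64. The other 6 of the 10 lay at Espn, Sv2c, Kbtbd11, Dgkz, Ptprcap and Bcl11b, between 2.31 and 2.38. Of the 10, 5 overlapped a 3′ UTR, 3 an intron, 1 an exon and 1 was intergenic within 10000 bp of a start, and none overlapped a 5′ UTR.

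The least enriched of the well-covered genes was Rbmy, a Y-linked spermatogenesis gene, with 2.99 and 2.77 CPM in the pull-downs, against 63.5 and 77.2 CPM in the inputs and a log2 enrichment of -4.59 (SE 0.21, edgeR adjusted p = 1.21e-97). Rbmy is a multi-copy family, its value rests on 1 region of 851 bp that lay outside any transcript, 509420 bp from the nearest gene start, and the sources used here do not say how reads of near-identical copies were counted. Stxbp6, which encodes a SNARE-binding protein, had 7.34 and 7.61 CPM in the pull-downs, against 103 and 99.8 CPM in the inputs over 24 regions, at a log2 enrichment of -3.76 (edgeR adjusted p = 1.26e-117). Its pull-downs lay below its inputs by over 13 times. Tead1, the transcription factor partner of YAP, had 13.5 and 14.5 CPM in the pull-downs, against 77 and 76.4 CPM in the inputs, a log2 enrichment of -2.45. App, the amyloid precursor gene, had 18 and 19.9 CPM in the pull-downs, against 50.7 and 67.3 CPM in the inputs, a log2 enrichment of -1.62. In all of these both pull-downs lay below both inputs. The others of the 12 were Tmem178b (-2.60), Actr3b (-2.45), Pdzrn3 (-2.38), Pou5f1-rs4 (-2.07), Csgalnact1 (-1.82), Tent5a (-1.69), the receptor gene Lifr (-1.56) and the transcription factor gene Etv1 (-1.52), with an edgeR adjusted p of at most 5.7e-16 in all 12. Restricted to regions that overlap the transcript, 9 of the 12 could be tested and all 9 were lower. Of these Stxbp6 stood at -4.08, Csgalnact1 at -1.24, Tent5a at -1.11 on 2 of its 35 regions and Lifr at -0.93 (edgeR adjusted p = 0.0254). Rbmy had no region on the transcript, and Tmem178b and Pou5f1-rs4 had 1 each, with too few reads for a test.

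All 12 of the least enriched genes, Stxbp6 and Tead1 among them, had a higher pull-down CPM in both kinds of iTreg than in Treg. In CPM without TMM scaling, the pull-downs of Stxbp6 held 6.39 and 6.59 in Treg, 87.3 and 44.5 in TGFβ iTreg, 166 and 70 in TGFβ, RA and VitC iTreg and 5.4 and 6.47 in naive cells. Those of Tead1 held 11.7 and 12.6 in Treg, 87.9 and 92.7 in TGFβ iTreg, 90.6 and 102 in TGFβ, RA and VitC iTreg and 7.59 and 9.56 in naive cells. On the same scale, the pull-downs of Rbmy and Pdzrn3 lay below their inputs in every cell type. For Rbmy in TGFβ, RA and VitC iTreg they held 6.26 and 12.5, against 93.3 and 101 in the inputs. All 12 were lower in Treg than in the mean of the other 3 cell types by the test of the difference, by -2.61 to -1.41 on the log2 scale, where 11.3% of 13626 genes were lower and 9.09% higher (1534 and 1239, and 971 and 782 without Treg input 1). Against naive cells alone, 1 of the 12 was higher (Lifr), 3 were lower and 8 did not pass. The 12 most enriched genes did not stand apart in this way: 1 was higher (Hsdl1), 2 lower and 9 did not pass against the mean of the other 3. Both sets were chosen by their Treg enrichment, which is a term of this difference.

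Among regions, the lowest values rested on few pull-down reads. An intergenic region at chr19:51247171-51247836 held 1 and 0 reads in the pull-downs, against 13 and 8 reads in the inputs, and the promoter region of Bpifb4 (chr2:153763291-153764872) held 1 and 2 reads in the pull-downs, against 14 and 8 reads in the inputs. For counts this low the fitted fold depends on the prior count, so none is given. The best covered of the 10 lowest regions was that of Rbmy (chrY:2896698-2897548), with 20 and 20 reads in the pull-downs, against 99 and 102 reads in the inputs, a log2 enrichment of -4.51. Next came an intronic region of Stxbp6 (chr12:46168277-46171628) with 4 and 7 reads in the pull-downs, against 20 and 28 reads in the inputs, a log2 enrichment of -4.28. The remaining 6 lay at Tmem178b, Zfp982, Stxbp6, Csgalnact1, Ncam2 and an unnamed transcript on chromosome 11. The calls of 7 of these 10 regions, all but those of Zfp982, Rbmy and the better covered Stxbp6 region, were lost in at least 1 fit that left out a pull-down.

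Gene classes differed in how many members were enriched. The classes were lists of known genes and families by symbol, and the share of all genes called was 20.5% higher and 16% lower. Genes of T cell identity and T cell receptor signalling had the highest median: 25 of 28 tested were higher and 2 lower, with a median log2 enrichment of 0.74 (all genes, -0.02). Against genes of like summed region width, this list lay 0.55 above the median, interferon-stimulated genes 0.43, B cell genes 0.37, Treg signature genes 0.35 and naive T cell genes 0.29. Without that match they lay 0.76, 0.42, 0.27, 0.45 and 0.56 above all genes, so the place of the naive and Treg lists depended on width. Lck led the list of T cell identity, followed by Zap70, the kinase that docks on the activated receptor, at 1.49. Its lowest members were Themis, a regulator of thymic selection, at -0.20, a call lost without input 2, and Tcf12, an E protein, at -0.26. Cd3e, a signalling chain of the receptor, had 123 and 123 CPM in the pull-downs, against 91.1 and 77.9 CPM in the inputs, a log2 enrichment of 0.53, and Cd4 reached 0.91. Of the marker sets, all 5 tested T cell markers and all 5 Treg markers were enriched, against 3 of 5 CD8 and NK markers, 1 of 5 B cell markers, 1 of 5 myeloid markers and 1 of 2 erythroid markers. 5hmC over a marker is not its expression, so these counts describe the landscape and do not measure the purity of the sort.

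**Figure D4:**
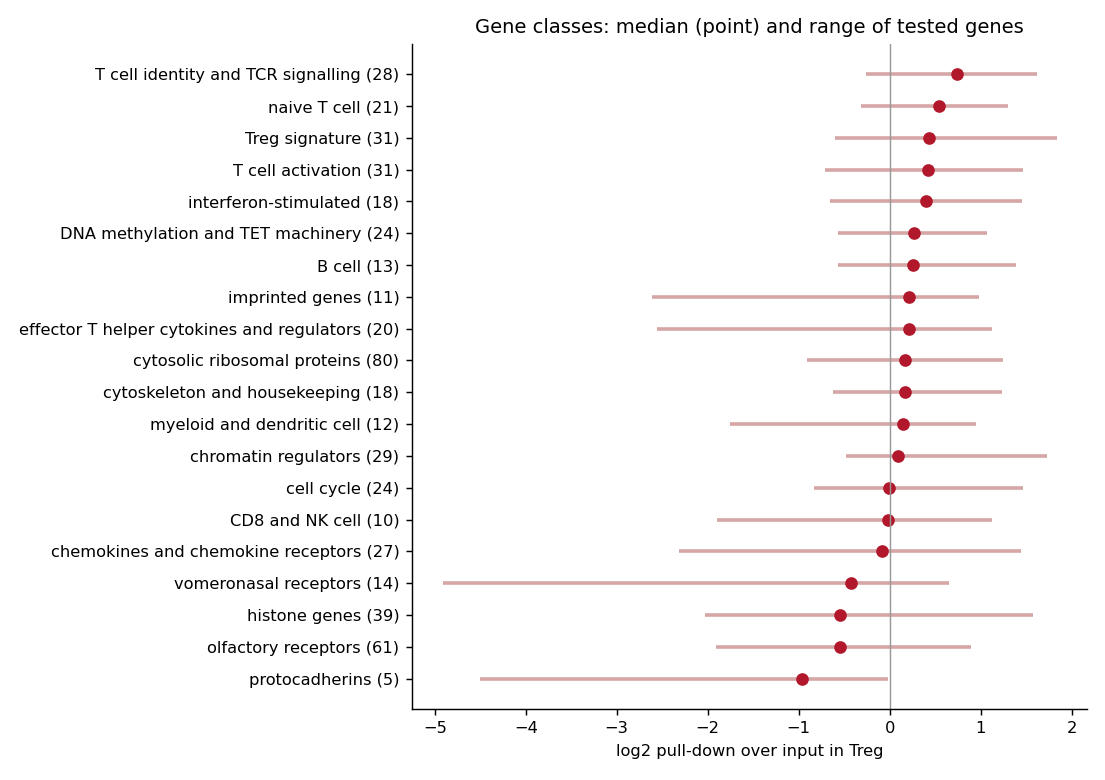
Median (point) and range (line) of the log2 enrichment of pull-down over input in Treg for the tested members of the 20 gene classes with named members, whose number stands in brackets. T cell identity (median 0.74), naive T cell (0.54) and Treg signature genes (0.43) lie highest, and olfactory receptors (-0.55), histone genes (-0.55) and protocadherins (-0.97) lowest.

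Of the Treg signature genes 23 of 31 were higher and 1 lower, with a median of 0.43. Foxp3, the transcription factor that defines the lineage, had 40.7 and 46.1 CPM in the pull-downs, against 10.3 and 14.4 CPM in the inputs, from 1 region that overlaps its 3′ UTR (chrX:7163959-7172345). Both pull-downs were over 2 times both inputs, at a log2 enrichment of 1.84 (SE 0.21, edgeR adjusted p = 1.98e-16), the highest of the list as symbols were assigned. That value leaves out the region over the start of Foxp3, which carries the symbol Flicr. The X median of 0.59, which covers tested regions only, and the X read densities are to be read beside the value of Foxp3. At lower coordinates than the 3′ UTR region, the table assigns 2 regions to Flicr, a noncoding RNA gene at the Foxp3 locus, named here after their values were seen. The nearer one (chrX:7156699-7163183) lay over the start of Foxp3 and overlapped a 5′ UTR. It had 5.85 and 8.23 CPM in the pull-downs, against 13.9 and 12.5 CPM in the inputs. Its log2 value was -0.90 (edgeR adjusted p = 0.0176), a call lost without input 1 and without input 2. The farther one (chrX:7152321-7155923), a promoter region 878 bp from the start of Foxp3, had 0.83 and did not pass (edgeR adjusted p = 0.0908).

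Tnfrsf18, which encodes the receptor GITR, had 72.3 and 81.8 CPM in the pull-downs, against 27.6 and 26.5 CPM in the inputs, a log2 enrichment of 1.51 (SE 0.15, edgeR adjusted p = 7.5e-22). Ikzf4, the gene of the Ikaros-family factor Eos, had 126 and 127 CPM in the pull-downs, against 63.5 and 46.9 CPM in the inputs, a log2 enrichment of 1.18. Il2rb, the β chain of the interleukin-2 receptor, had 191 and 194 CPM in the pull-downs, against 99.4 and 76.4 CPM in the inputs, a log2 enrichment of 1.12. For these 3 genes both pull-downs again exceeded both inputs by about 2 times or more. Ikzf2, the gene of the related factor Helios, spread over 60 regions and had 1536 and 1560.3 CPM in the pull-downs, against 943 and 935 CPM in the inputs, a log2 enrichment of 0.72 (edgeR adjusted p = 3.38e-66). Of its 50 tested regions 9 were higher and none lower, and an exonic region of 24584 bp (chr1:69624171-69648754) reached 1.68 (edgeR adjusted p = 1.47e-25). Ctla4, an inhibitory receptor, had a log2 enrichment of 0.60 over 11 regions, of which 5 were higher and 1 lower, and 0.24 over the regions on its transcript. At the low end, Itgb8, an integrin chain that activates TGFβ, had -0.19 and did not pass (edgeR adjusted p = 0.106), and Socs2, a cytokine signalling inhibitor, had -0.60 and was the 1 depleted member.

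Il2ra held an enriched and a depleted stretch within 1 gene. Summed over 8 regions it had 361 and 362 CPM in the pull-downs, against 235 and 239 CPM in the inputs, a log2 enrichment of 0.61 (SE 0.07, edgeR adjusted p = 2.59e-19). Of its 7 tested regions 3 were higher and 1 lower. The higher ones included an exonic region of 28037 bp (chr2:11568438-11596474) with 150.1 and 159 CPM in the pull-downs, against 76.9 and 87.9 CPM in the inputs, a log2 enrichment of 0.91 (edgeR adjusted p = 2.76e-11). The lower one was the 3777 bp region over its start, whose CG-poor promoter is printed above, at -1.98. The start of Il2ra was thus depleted while the gene body downstream was enriched, in the same 4 libraries.

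Naive T cell genes were also enriched in Treg, 16 of 21 higher, 1 lower and a median of 0.54. Il6ra, the interleukin-6 receptor, reached 1.30 and Lef1 1.27, with 1.80 for Lef1 over the regions on its transcript. Tcf7, which encodes TCF1, had a log2 enrichment of 0.90, and 0.42 over the 1 region on its transcript. All 5 of its regions were higher, the 1 in the intron (chr11:52079975-52093777, 0.52) losing its call without pull-down 2, input 1 or input 2. Bach2 had 1.06, with 20 of its 36 tested regions higher and 1 lower. Il7r, the interleukin-7 receptor, had 223 and 222 CPM in the pull-downs, against 250.1 and 239.8 CPM in the inputs, a log2 value of -0.14 that did not pass (edgeR adjusted p = 0.101), and Igfbp4 had -0.32, a depletion call lost in 3 of the 4 fits that left out a library.

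Of the T cell activation genes 22 of 31 were higher and 3 lower (median 0.42). Nr4a1, an early target of receptor signalling, had 220.4 and 218 CPM in the pull-downs, against 70.5 and 89.3 CPM in the inputs, a log2 enrichment of 1.47, and the AP-1 gene Junb had 1.44. The AP-1 genes Jun and Batf3 had -0.62 and -0.71, calls lost without either input. Effector T helper genes were mixed, with 9 of 20 higher and 3 lower (median 0.21). Cxcr5, the chemokine receptor of follicular helper cells, had 279 and 278 CPM in the pull-downs, against 129.6 and 138 CPM in the inputs, a log2 enrichment of 1.06. Cxcr3, the receptor of T helper 1 cells, had 1.12 on 8 and 5 input reads and lost its call without either input. Il17a, the T helper 17 cytokine, held 2 and 10 reads in the pull-downs, against 7 and 8 reads in the inputs and was lower (edgeR adjusted p = 0.000103), with too few pull-down reads for a fold. Its neighbour Il17f held 22 and 20 reads in the pull-downs, against 8 and 12 reads in the inputs, a log2 enrichment of -1.19, a call lost in 3 of the 4 fits that left out a library.

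Markers of other lineages were mixed. Of the CD8 and NK cell genes, 5 of 10 were higher and 4 lower (median -0.02). Cd8a had 93.4 and 94.4 CPM in the pull-downs, against 45.5 and 40.1 CPM in the inputs, a log2 enrichment of 1.13, and Cd8b1 had 0.95, while the NK receptor genes Klra1 and Klrd1 had -1.24 and -1.90. As background, CD4 T cells pass a thymic stage that also expresses CD8. In the B cell list 2 of 13 were higher and none lower (median 0.26), namely Cd79a, a chain of the B cell receptor, at 1.39 and the kinase gene Blk at 0.65, whose call was lost without pull-down 1 or either input. Pax5, the factor of B cell commitment, had -0.22 and Fcer2a -0.57, and neither passed. In the myeloid list 3 of 12 were higher and 2 lower (median 0.15). Cebpb, a transcription factor of myeloid cells, had 0.95 on 4 and 4 input reads and the receptor gene Csf1r had 0.58, and neither passed, while the macrophage marker Adgre1 had -0.94, lost without input 1, and the lysozyme gene Lyz2 -1.76 on 4 and 6 input reads, lost without either input.

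The genes that write and remove DNA methylation had 12 of 24 members higher and 1 lower (median 0.27). Tet3 had 582 and 604 CPM in the pull-downs, against 285 and 289.7 CPM in the inputs, a log2 enrichment of 1.04 (SE 0.06, edgeR adjusted p = 5.8e-70), with a region of 38231 bp over its start (chr6:83367116-83405346) at 1.46. Tet2 had 282 and 284 CPM in the pull-downs, against 249 and 222 CPM in the inputs, a log2 enrichment of 0.26 (edgeR adjusted p = 0.00069), a call lost without input 2 (edgeR adjusted p = 0.119). Tet1 had 145 and 143 CPM in the pull-downs, against 147 and 132 CPM in the inputs, a log2 value of 0.04 (edgeR adjusted p = 0.763), and its groups overlapped. Gadd45a, an adaptor of demethylation, had 1.07, a call lost without input 2, which held 3 reads (0.43 without it, edgeR adjusted p = 0.441). Dnmt3b, a de novo methyltransferase, had -0.56, a call lost without input 2.

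Chromatin regulators had 13 of 29 higher and 6 lower (median 0.10), from Kdm6b, an H3K27 demethylase, at 1.73 and Hdac7, a deacetylase of T cells, at 1.19 to Kmt2c at -0.43 and Kdm5a at -0.48. Interferon-stimulated genes had 7 of 18 higher and 1 lower (median 0.40): Irf9, the DNA-binding part of the interferon response complex, had 1.43, Oas1a had 1.45 on 3 and 3 input reads and lost its call without either input, Ddx58 had -0.17 without passing, and Oas2 had -0.66. Housekeeping genes had 8 of 18 higher and 2 lower (median 0.16), with the actin genes Actb at 1.24 and Actg1 at 0.86 highest and Tfrc at -0.37 and Tbp at -0.62 lowest, the Tbp call lost without pull-down 1 or either input. Cell cycle genes had 6 of 24 higher and 4 lower (median -0.01). The D-type cyclins Ccnd3 and Ccnd2, which start the cycle, had 1.47 and 1.31, while the replication and division genes Mcm3 and Cdk1 had -0.78, lost without input 1, and -0.83. Imprinted genes had 4 of 11 higher and 4 lower (median 0.22), with Igf2r at 0.98 and Gnas at 0.63, against the noncoding RNA genes Meg3 at -1.39 and H19 at -2.61.

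Among the 26 families read from symbols, 9 had a median above that of all genes and 17 below it. Cytosolic ribosomal protein genes had 22 of 80 higher and 6 lower (median 0.17). Rps25 stood at 1.25 and Rpl22l1 at -0.90, and both calls were lost without input 2 (0.78 and -0.65). Chemokines and their receptors had 7 of 27 higher and 5 lower (median -0.09). Ccr8, a receptor of tissue Treg, had 93.1 and 97.1 CPM in the pull-downs, against 28.9 and 42.4 CPM in the inputs, a log2 enrichment of 1.44, and Ccr7, the lymph node homing receptor, 1.21, while Ccr1 had -1.15, lost in every fit that left out a library, and the chemokine gene Ccl20 -2.32.

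The lowest medians among the lists and families were those of protocadherins (-0.97), defensins (-0.68, 4 tested), Hox genes (-0.56, 9 tested), olfactory receptors (-0.55), histone genes (-0.55) and vomeronasal receptors (-0.43). The place of the lowest families was not firm. With 1 library left out, the median minus that of all genes ran from -1.15 to -0.15 for protocadherins and from -0.83 to 0.061 for defensins. For Hox genes it ran from -0.71 to -0.35 and for histone genes from -0.64 to -0.39. Other lists and families known from tissues outside the lymphocytes lay nearer to the middle, with medians of -0.16 for keratins, -0.03 for potassium channels, 0.14 for liver genes and 0.14 for muscle genes. Of the 106 olfactory receptor genes 61 were tested, of which 1 was higher and 22 lower, from Olfr986 at 0.89 and Olfr520 at 0.66, neither past the threshold, to Olfr536 at -1.88 and Olfr46 at -1.91, both calls lost without input 1. Restricted to regions on the transcript, 13 olfactory receptors were left, with a median of 0.10 against -0.02 for all genes, and these 13 had a median of -0.55 over all their regions. Vomeronasal receptors had none of 14 higher and 5 lower, and Vmn1r49 held 2 and 0 reads in the pull-downs, against 9 and 6 reads in the inputs. Histone genes had 2 of 39 higher and 12 lower, from Hist2h2bb at 1.57 to Hist1h4j at -2.00, lost without either input, and Hist1h3c at -2.03. Protocadherins, adhesion genes of neurons, had none of 5 higher and 3 lower, and Pcdh9 held 1 and 2 reads in the pull-downs, against 9 and 7 reads in the inputs. Genes with so few pull-down reads, Vmn1r49 and Pcdh9 among them, could enter the test only through their inputs. Their place on the lower side is thus no evidence for their families. Receptor, histone and ribosomal genes have near-identical copies, and how the counting treated reads shared by copies is not given in the sources used here.

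Sorted naive cells were the cells to set the Treg landscape against, and the test was of the difference in enrichment between them, from 1 fit of all 16 libraries. Enrichment in Treg and in naive cells had a Spearman rho of 0.59 across 13607 genes, as a description. Of 13626 genes tested, 1323 were more enriched in Treg (9.71%) and 878 less (6.44%). Among 68240 regions, 2957 were more enriched in Treg (4.33%) and 1478 less (2.17%). Without Treg input 1 the less enriched were 582 genes and 597 regions, and without input 2 the regions were 720. In the Treg signature 22 of 30 genes were more enriched in Treg and none less, with a median difference of 1.03 on the log2 scale. The list holds genes known for Treg, some of them through studies that compared such cells. Of the T cell identity genes, 1 of 28 was more enriched in Treg and 10 less, and of the naive T cell genes none of 21 was more and 10 less. Activation genes had 13 of 31 more enriched in Treg and none less, effector T helper genes 12 of 20 more and 3 less, and olfactory receptors none of 51 more and 13 less.

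Ikzf2 had a log2 enrichment of 0.69 in Treg, against -1.39 in naive cells, a difference of 2.08 (SE 0.06, edgeR adjusted p = 5.72e-119). Foxp3 had 1.80 in Treg, against 0.56 in naive cells, a difference of 1.24 (edgeR adjusted p = 0.00785) that fell below the threshold without Treg input 1 (1.00, edgeR adjusted p = 0.112). Il2ra had 0.57 in Treg, against -0.84 in naive cells, a difference of 1.42 (edgeR adjusted p = 8.16e-39). Tnfrsf18 had a difference of 0.46 that did not pass (edgeR adjusted p = 0.214). Naive cells were thus on the depleted side for Ikzf2 and Il2ra, and Treg on the enriched side. Stk31, which had 24 regions with 2 of them on its transcript, showed the largest difference among well-covered genes, 3.03, with 0.22 in Treg against -2.81 in naive cells. Prr5l, a regulator of mTORC2, had a difference of 2.34, the Rac activator gene Dock1 2.20, Itgb8 2.20 and the growth factor receptor gene Pdgfra 2.10. For Itgb8 the difference stood on a Treg value of -0.22, near the middle of all genes, against a naive value of -2.42.

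In the other direction App had -1.65 in Treg, against 0.54 in naive cells, a difference of -2.19 (SE 0.20, edgeR adjusted p = 1.86e-22). Pdzrn3, a ubiquitin ligase gene, had a difference of -2.05, Hs3st3b1, a heparan sulfate sulfotransferase gene, -1.91, the bicarbonate transporter gene Slc4a4 -1.62, Cd163l1 -1.53 and Olfr524 -1.47. All 6 had values below 0 in Treg, and Slc4a4 had -1.41 in Treg, against 0.21 in naive cells. Of genes enriched in both cell types, Lef1 had 1.24 in Treg against 1.63 in naive cells (difference -0.39, edgeR adjusted p = 4.43e-09), and Lck 1.58 against 1.98 (-0.40, edgeR adjusted p = 0.0361), the Lck call being lost without pull-down 1 or either input. Rbmy and Stxbp6, the 2 most depleted well-covered genes of Treg, had -4.62 and -3.79 in Treg, against -4.87 and -3.86 in naive cells, with differences of 0.25 (SE 0.36) and 0.07 (SE 0.27) that did not pass.

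**Figure D5:**
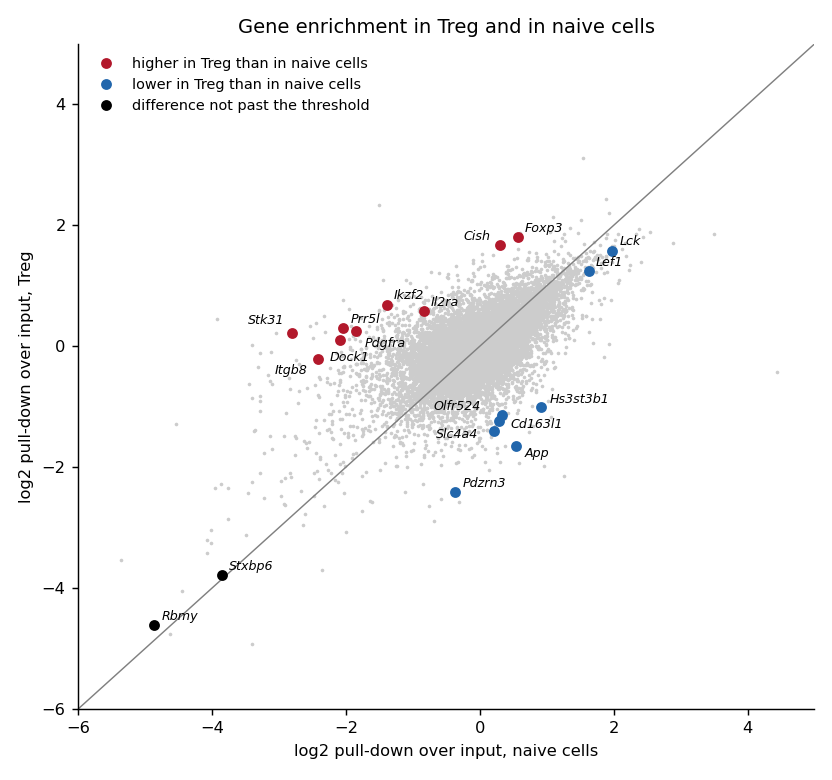
Log2 enrichment of each gene in sorted Treg (y axis) against sorted naive cells (x axis) from the fit of 16 libraries, 1 point per gene, with named genes in colour. Ikzf2, Il2ra and Foxp3 lie above the diagonal, App and Pdzrn3 below it, and Rbmy and Stxbp6 near it at the depleted end.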

How the data were processed

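CMS-IP libraries of sorted Treg, 2 pull-downs and 2 inputs, were analysed with those of naive cells and both kinds of iTreg, 16 in all, grouped by label. The deposited values were whole-number read counts per region, with coordinates on mm9 and an annotation of gene parts and nearest symbols, per the file headers. The submitters' processing notes name MACS2 (2.1.0.20151222), SAMtools (1.7), Trim Galore (0.4.2), bcl2fastq (2.20.0.442) and the build mm9, and the deposited table is named as a union of broad peaks at q 0.01. Not given in the sources used here were the aligner, the read counter, the treatment of duplicate and multi-mapping reads and whether peaks were called on pooled libraries. The protocol's spiked amplicons are not used here, so no absolute amount of 5hmC was set. A union of peaks can hold regions called in other cells only, where a Treg pull-down may lie below its input.

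Regions passing edgeR's filterByExpr (minimum count 10) were scaled by TMM and tested with the edgeR 4.0.16 quasi-likelihood test (R 4.3.3, limma 3.58.1), pull-down over input, with a threshold of 0.05 after Benjamini-Hochberg adjustment over all features tested. That fit had 2 residual degrees of freedom. Genes were sums over all regions of a symbol. Differences between cell types were interactions in a fit of 16 libraries and 8 groups. With 2 libraries against 2, an exact two-sided permutation test of a single value cannot go below 0.333, so calls rest on the spread shared across features. The fit was tested on simulated data with known changes.

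Each region went to 1 gene part, the first it overlapped of 5′ UTR, promoter, 3′ UTR, exon, intron, intergenic within 10000 bp of a start and intergenic beyond. Regions on transcripts with none of these formed an added part, other transcript, of 2183 tested regions with a median log2 enrichment of 0.01. Promoter sequences were RefSeq's on GRCm38.p6, matched by symbol. Because no mm9 genome was used, no sequence was read by mm9 coordinates.

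Members and lists (19 lists, 26 families) were chosen with earlier results of these data known. Named were the 12 highest and 12 lowest genes past the threshold with 100 or more input reads and the same direction in both pairs (predicted symbols left out), the 2 highest and 2 lowest tested members of each described class, 16 genes always named, the 10 highest and lowest regions with 20 or more input reads, the highest and lowest such region of each always-named gene, and the 6 largest and smallest differences from naive cells. Some class members that this rule names are not reported here. Of the lists and families, 20 are described with named members.

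Input was reserved from the same DNA before the pull-down, per the labels' protocols, so equal numbers pair a pull-down with its input. The replicate differences of pull-down and input had a correlation of -0.01 over 39553 regions with 20 or more input reads. Alternatives were library-size scaling, DESeq2 1.42.0, no filter, a mean of at least 50 reads, the replicate block, all 16 libraries, each library left out, pull-downs thinned to input depth and, for genes, regions on the transcript only. An alternative relative to genes of like summed width was chosen after seeing the data. Every per-sample value column was used.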

Additional observations from a re-analysis of the deposited data

Results flagged for a closer look

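For 29 of the genes that were always named or named for the highest and lowest values, the enrichment over input differed between sorted Treg and sorted naive cells by the interaction test in edgeR (adjusted p under 0.05). Each value below is the log2 enrichment in Treg minus that in naive cells.

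More enriched in Treg were Stk31 (3.03), Prr5l (2.34), Dock1 (2.20), Itgb8 (2.20), Pdgfra (2.10) and Ikzf2 (2.08), the 6 largest among well-covered genes. Of the other always-named genes of Treg biology, Il2ra (1.42), Foxp3 (1.24), Il2rb (1.21), Ikzf4 (0.96) and Ctla4 (0.86) differed the same way, while Tnfrsf18 (0.46, edgeR adjusted p = 0.214) did not pass. Of these genes, those more enriched in Treg also included Tet2 (0.79), Cish (1.37) and Lifr (1.00), of which Lifr was depleted in both cell types. Against the mean of the other 3 cell types, 3 of the 16 always-named genes were higher in Treg, 4 lower and 9 did not pass. The higher ones were Ikzf2 (1.21), Foxp3 (0.90) and Tet2 (0.52). The lower ones were Il2ra (-0.58), Ctla4 (-0.45), Il7r (-0.38) and Bach2 (-0.18).

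Less enriched in Treg were App (-2.19), Pdzrn3 (-2.05), Hs3st3b1 (-1.91), Slc4a4 (-1.62), Cd163l1 (-1.53) and Olfr524 (-1.47), the 6 smallest. Of the genes of T cell identity and of the naive state, Lef1 (-0.39), Il7r (-0.47), Cd4 (-0.44), Cd3e (-0.45) and Lck (-0.40) were less enriched in Treg, as were Fam78a (-0.64), Itpkb (-0.24), Tent5a (-0.73) and Tet1 (-0.63). Of the TET genes, Tet2 was thus above and Tet1 below naive cells, while Tet3 had -0.07 and did not pass (edgeR adjusted p = 0.661).

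The differences of Foxp3, Cd4, Cd3e, Fam78a, Lck and Itpkb lost their call when at least 1 Treg library was left out.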

How the results depend on the processing

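Depth of the inputs limits these results, since a median region held 5 and 4 input reads. Enrichment of 4 libraries is relative to the scaling and to a peak set of the series, the labels do not say that replicates were separate mice, and the fit of the 4 Treg libraries has 2 residual degrees of freedom. A fit without 1 library assumes that the lone library varies like the others.

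The regions called higher, 12797 as reported, numbered 7253 with library-size scaling, 6877 with DESeq2, 3326 with a mean of at least 50 reads, 3524 with thinned pull-downs and 6723 to 9399 with 1 library left out. Regions called lower, 8073 as reported, numbered 15550, 2105, 2999 and 2518 under the same 4 settings, 5326 with no filter and 1795 to 2384 with 1 library left out. Genes called higher, 2981 as reported, numbered 1761 with library-size scaling and 1837 with DESeq2. Genes called lower, 2332 as reported, numbered 4486 with library-size scaling, 903 with DESeq2, 1486 with thinned pull-downs and 1245 to 2126 with 1 library left out, the lowest without Treg input 1. With 1 library left out, regions less enriched in Treg than in naive cells numbered 597 to 1225 and genes 582 to 840. Against the mean of the other 3 cell types it was 782 to 1118 genes higher and 971 to 1422 lower, the lowest counts again without Treg input 1. The replicate block, with each pull-down set against its own input, gave 3071 genes higher and 2412 lower and 13109 regions higher and 8342 lower, within 1.5 times of the reported counts, and changed the call of no named gene or region. Fewer reads or libraries remain under thinning and left-out libraries, and fewer regions under the stricter filter. For DESeq2 the cause was not tested.

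Medians of gene parts, minus the median of all regions, were computed for regions with 1 part named, for 20 or more input reads and for widths of 500 to 1500 bp. They were 0.20, 0.24 and 0.16 for 5′ UTR (0.26 as reported), the first of them from 11 tested regions, 0.26, 0.10 and 0.31 for promoters (0.20), -0.094, 0.071 and -0.086 for 3′ UTR (0.045), -0.027, -0.046 and -0.031 for exons, -0.030, -0.065 and -0.043 for introns, and -0.035, -0.081 and -0.0038 for near intergenic regions. For other transcripts the first 2 were 0.051 and 0.082. Over 5′ UTR regions only, the medians by CG content were 0.22, 0.38, 0.21 and 0.17 from few to many. The cause was not tested.

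Minus the median of all genes, the Treg signature had 0.49 with all 16 libraries, 0.51 with thinned pull-downs, 0.49 on transcripts only, 0.35 against genes of like width and 0.47 to 0.54 with 1 library left out (0.45 as reported). T cell identity genes had 0.67 with thinned pull-downs, 0.89 on transcripts, 0.55 against like width and 0.68 to 0.77 with 1 left out (0.76). Olfactory receptors had -0.51 with no filter, -0.30 with a mean of at least 50 reads, -0.52 with all 16 libraries, -0.29 thinned, 0.11 on transcripts, -0.40 against like width and -0.58 to -0.42 with 1 left out (-0.53).

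Some values changed sign. Tet1 had -0.17 with library-size scaling, -0.015 with a mean of at least 50 reads, -0.093 thinned and -0.034 to 0.12 with 1 library left out. Pax5 had 0.032 thinned and -0.59 to 0.36 with 1 left out, Fcer2a -1.14 to 0.18 and Pcdh12 -0.15 to 0.089. Treg minus naive, Hsdl1 had -0.030 to 0.058, Sytl3 -0.092 to 0.0087, Pou5f1-rs4 -0.25 to 0.12 and Actr3b -0.12 to 0.12, with 0.013 under the replicate block. With a mean of at least 50 reads, the Cd4 region at chr6:124820386-124830427 had -0.18 and the Tcf7 region at chr11:52079975-52093777, called as reported at 0.52, had -0.024. The Tet2 region at chr3:133098182-133100392 had 0.071 with no filter and -0.16 to 0.066 with 1 left out. The cause was not tested. Over all other values of single genes and regions in Treg, 1629 kept direction and call, 17 gained and 116 lost a call, and for Treg minus naive 278 kept them, 1 gained and 9 lost a call.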
